A study of Arabidopsis thaliana with 2 samples.

Results

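Auxin response genes of Arabidopsis thaliana were followed in T87 suspension cells, a line of cultured plant cells grown in liquid medium. The genes were taken by their array annotation: a locus code on chromosomes 1 to 5 and a description naming an auxin response factor, an indole-3-acetic acid inducible or Aux/IAA protein, or a SAUR-like protein. The rule matched 126 probes and led to 119 loci of 25344 on the array, namely 20 ARF genes, 25 Aux/IAA genes, 73 SAUR genes and GH3.9, an enzyme that the wording also caught. Cells were collected 8 days and 1 day after transfer to fresh medium, with no other treatment, and each day is represented by 1 array and 1 biological replicate. On each array, RNA of the polysomal fractions 1 to 3 of a sucrose gradient was hybridised together with RNA described mostly as that of the whole gradient, fractions 1 to 8, and the result is a polysome ratio for each gene. Read as polysomal over total, a high ratio means that much of a gene's mRNA sits on several ribosomes. The files hold ratios within an array and no levels, so the cell type could not be checked against marker levels, and nothing here says whether a gene's mRNA became more or less abundant. With 1 array a day there is no spread between cultures and no test. All differences describe these 2 arrays, and at least 2-fold is used as a size for naming genes.

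Auxin acts by removing repressors. Aux/IAA proteins bind ARF transcription factors and recruit TOPLESS co-repressors. Auxin joins Aux/IAA proteins to the F-box receptors TIR1 and AFB, and the repressors are then marked for breakdown by the proteasome. ARF proteins bind auxin response elements in promoters through a B3 domain, and some activate while others repress. Aux/IAA and SAUR genes are classic early targets that auxin induces quickly, and both make short mRNAs. SAUR proteins promote cell expansion, in part by blocking phosphatases that hold the plasma membrane proton pump inactive. The labels give the medium by name and do not list its hormones.

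Signal on both days was found for 75 of the 119 loci. These were 15 of 20 ARF genes, 24 of 25 Aux/IAA genes, 35 of 73 SAUR genes and GH3.9. A further 9 loci had signal on day 1 only and 4 on day 8 only, and 31 had none on either day, 26 of them SAUR genes. Features without signal do not sit at 0 on these arrays. At the median negative control they share a value of 25.1% for day 8, against 53.8% for day 1. That difference would by itself count as at least 2-fold lower on day 8. Genes that lay at the value without signal were left out, and the comparison below covers those that remained. The day 8 value falls in the middle of the real ratios, so a gene with signal that happens to lie there is lost as well.

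Ratios are given as percent of the denominator. The labels describe the other pool mostly as total RNA but once as nonpolysomal, and the dye of each pool is not settled by them. If that pool was nonpolysomal, the percent compares bound with unbound mRNA and could pass 100%. The direction, polysomal over total, is likely rather than certain. It rests on the authors' name for the value and on 2 checks: 0.168% of 19628 genes with signal lay above 100% on day 8 and 0.377% on day 1, and 3 genes for small nuclear RNAs, which ribosomes do not read, had medians of 0.528% on day 8, against 1.68% on day 1. No member lay above 100% on either day. All levels, orders and signs below hold for this direction, and with the ratio turned round every order and sign would be the opposite.

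In this direction the class order on day 8, from high to low, was ARF, Aux/IAA, SAUR. ARF mRNAs had a median ratio of 35.5% on day 8, against 37.5% on day 1. Aux/IAA mRNAs had 29.5% on day 8, against 35.9% on day 1, and SAUR mRNAs had 16.4% on day 8, against 31.8% on day 1. The median over all genes was 24.2% on day 8, against 36.0% on day 1. In this bulk material, a difference in the make-up of the cells and a difference within each cell cannot be told apart, nor can fewer cells of a type and less RNA per cell. On day 1 the 3 classes lay within a few percentage points of each other and of the median gene. On day 8 they lay further apart, with the ARF genes above the median gene and the SAUR genes below it. All genes were spread more widely on day 8 too, with quartiles of 16.8% and 33.4%, against 32.0% and 39.8% on day 1. The SAUR median lay just below the lower quartile of all genes on both days. The ARF median lay above the upper quartile on day 8 only.

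Read as a change, the median ARF gene differed by -0.01 between day 8 and day 1 on the log2 scale. The median Aux/IAA gene differed by -0.26 and the median SAUR gene by -0.78, where the median over all genes was -0.52. Short genes in general were lower. All genes spanning under 1000 bases had a median change of -0.89, and the 26 SAUR genes among them had -0.82. At least 2-fold lower ratios on day 8 were found for 1 of 15 ARF genes (6.67%), 3 of 24 Aux/IAA genes (12.5%) and 14 of 35 SAUR genes (40.0%), against 25.6% of all genes. At least 2-fold higher ratios were found for 0 ARF genes, 1 Aux/IAA gene and 2 SAUR genes, against 1.17% of all genes. Lower ratios of any size were found for 8 ARF, 17 Aux/IAA and 30 SAUR genes, where the share over all genes was 81.5%. Over the 75 members together 25.3% were at least 2-fold lower, close to the background.

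**Figure D1:**
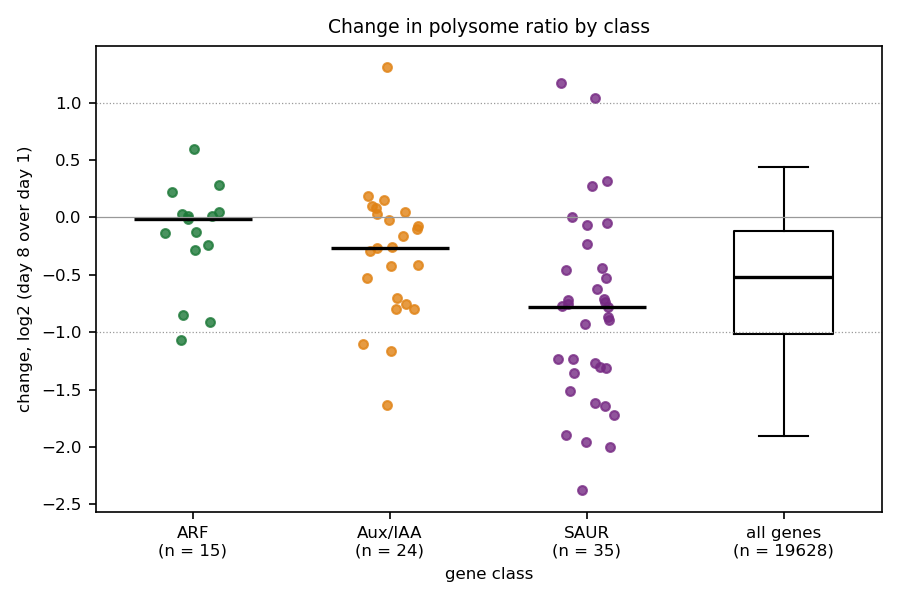
Change in polysome ratio, log2 of day 8 over day 1, for each ARF, Aux/IAA and SAUR gene with signal on both days (points; black bars are class medians) and for all 19628 genes (box with quartiles and median, whiskers from the lower to the upper 5% tail). The ARF median lies at -0.01, the Aux/IAA median at -0.26 and the SAUR median at -0.78, around the median of all genes at -0.52.

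The size of a change depends on where 0 lies. The 10 spike-in RNAs, added in known amounts when the fractions were collected, had a median change of -0.29, and 9 of them were lower on day 8. Set against the median spike-in, the ARF genes lay at 0.28, the Aux/IAA genes at 0.03 and the SAUR genes at -0.49. Set against the median gene they lay at 0.51, 0.26 and -0.26. Relative to the median gene, 0 ARF, 1 Aux/IAA and 7 SAUR genes were lower by 2-fold or more, a call made for 10.8% of all genes, and 1, 1 and 2 were higher by 2-fold or more, a call made for 4.35%. With 0 at the median spike-in, 12 ARF, 13 Aux/IAA and 8 SAUR genes were higher on day 8, where 35.9% of all genes were. The order of the classes is the same under each choice, since a shift moves them all alike, but the sign of the ARF and Aux/IAA medians is not. Different probes of a gene, for the 453 genes with at least 2, differed with a median SD (log2) of 0.33 for day 8, 0.15 for day 1 and 0.28 for their difference. That is error within an array. The spike-in probes show a further spread, with changes from -0.55 to 0.61, which is wide beside the 0.03 of the Aux/IAA genes set against their median. Error between cultures is not shown by these files.

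Among the ARF genes, the highest day 8 ratio was that of ARF2, a repressor that limits organ size, with 70.5% on day 8, against 46.6% on day 1 (log2 change 0.60). That gene stood in the top 1% of all genes on day 8, at percentile 99.2, and at percentile 93.0 on day 1. A second probe that the file names ARF2 by symbol, and whose RefSeq record leads to the same locus, gave 252% on day 8 and 47.5% on day 1. Both probes were higher on day 8 and gave like values on day 1, but the day 8 ratio of ARF2 is not settled, since a share of total RNA cannot pass 100%. The day 1 ratios of ARF2, ARF7 and ARF18 lay within 0.1 (log10) of features without signal. The 12 ARF genes without these 3 had a median ratio of 33.0% on day 8, against 37.1% on day 1, and a median change of -0.13.

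The 5 ARF proteins known as activators, with a glutamine-rich middle region, had 35.5% to 52.0% on day 8 and 34.8% to 42.9% on day 1. All 5 lay above the median gene on day 8, and none differed between the days by more than 0.28 on the log2 scale. ARF7 (NPH4), which acts in phototropism and lateral root formation, had 52.0% on day 8 and 42.9% on day 1. ARF5 (MONOPTEROS), required for the embryonic root and for vascular strands, had 43.5% on day 8 and 37.2% on day 1. ARF19, the close partner of ARF7, had 39.4% on day 8 and 38.1% on day 1. Of the 5, the flower maturation pair differed least, with 37.2% on day 8 and 37.5% on day 1 for ARF6 and 35.5% on day 8 and 34.8% on day 1 for ARF8. These 5 were grouped by textbook knowledge after their values had been seen.

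The other 10 ARF genes ranged more widely, from 15.4% to 70.5% on day 8 and from 29.0% to 47.2% on day 1. ARF18 had 47.5% on day 8 and 47.2% on day 1, and ARF10, a target of miR160, had 38.3% on day 8 and 37.9% on day 1. ARF9 had 33.7% on day 8 and 36.8% on day 1, ARF11 had 32.2% on day 8 and 38.1% on day 1, and ARF1 had 30.4% on day 8 and 37.0% on day 1. Each of these lay above the median gene on day 8. ARF3 (ETTIN), which patterns the gynoecium, had 26.5% on day 8 and 29.0% on day 1. Its day 1 ratio was the lowest of the ARF genes, at percentile 15.6 of all genes, and its day 8 ratio lay close to the value of features without signal.

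Only 3 ARF genes lay below the median gene on day 8. ARF4, which acts with ARF3 in leaf polarity, had 15.4% on day 8 and 32.4% on day 1, the lowest change among ARF genes (-1.07) and the only one past 2-fold. ARF17, likewise a target of miR160, had 19.95% on day 8 and 37.6% on day 1. ARF14, of the group of similar ARF genes on chromosome 1, had 19.95% on day 8 and 35.9% on day 1. The genes ARF2, ARF3 and ARF4, cut by the small RNAs from TAS3 transcripts, spanned changes from 0.60 to -1.07. A further miR160 target, ARF16, had 35.6% on day 1 and lay at the value of features without signal on day 8. ARF12, ARF13, ARF15 and ARF23 gave no signal on either day.

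**Figure D2:**
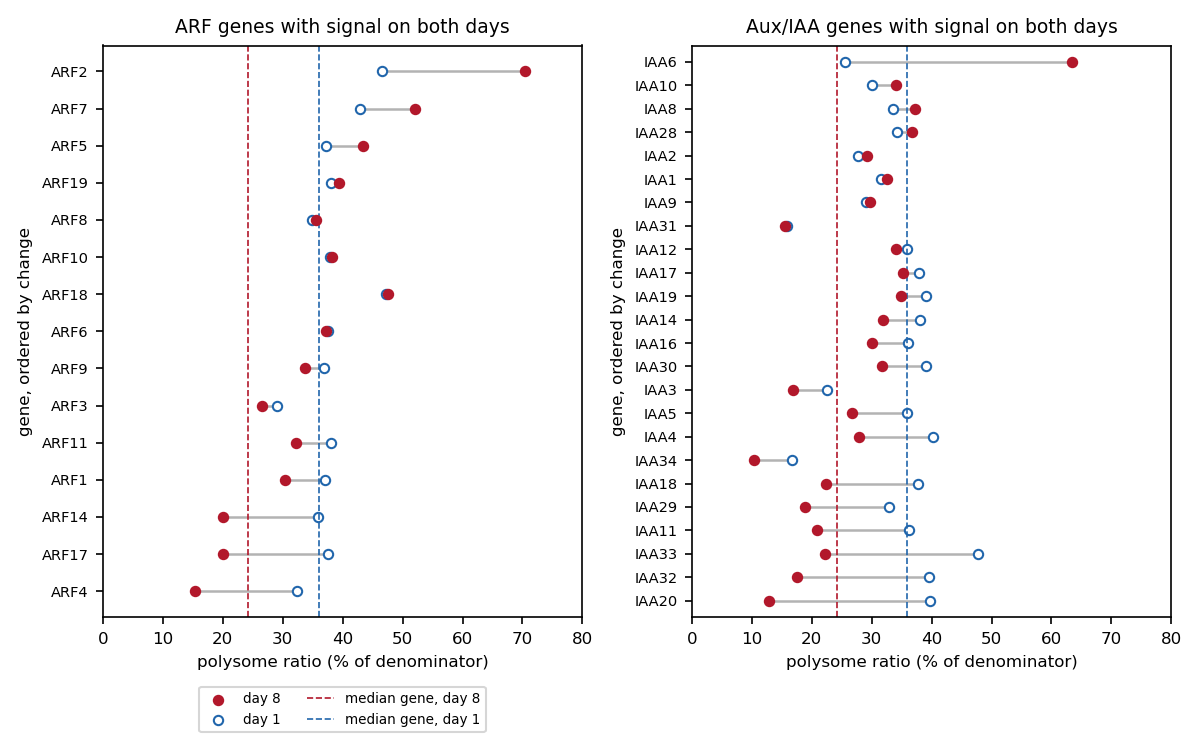
Polysome ratio, in percent of the denominator, of each ARF gene (left) and Aux/IAA gene (right) with signal on both days, ordered by change, on day 8 (filled points) and day 1 (open points), with 1 array a day. Dashed lines mark the median over all genes, 24.2% on day 8 and 36.0% on day 1; 12 of 15 ARF genes and 15 of 24 Aux/IAA genes lie right of the day 8 line.

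In their change, the Aux/IAA genes split more than the ARF genes, from -1.63 to 1.31 against -1.07 to 0.60. The day 8 ratios of the 2 classes ranged about as widely, from 10.3% to 63.4% against 15.4% to 70.5%. The highest Aux/IAA gene was IAA6, with 63.4% on day 8, against 25.5% on day 1 (log2 change 1.31), the only member of the class past 2-fold higher. It stood at percentile 98.6 of all genes on day 8 and at percentile 9.31 on day 1, and it rests on 1 probe.

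Most other canonical Aux/IAA repressors had day 8 ratios near one another. IAA8, measured with 2 probes that gave the same change, had 37.3% on day 8 and 33.6% on day 1. IAA28, which restrains lateral roots, had 36.6% on day 8 and 34.3% on day 1. IAA10 had 34.0% on day 8 and 29.99% on day 1, IAA1 had 32.6% on day 8 and 31.6% on day 1, IAA9 had 29.8% on day 8 and 29.1% on day 1, and IAA2 had 29.2% on day 8 and 27.7% on day 1. These 6, with IAA6, are the 7 members that were higher on day 8 as deposited. IAA17 (AXR3), whose stabilised form makes roots blind to auxin, had 35.2% on day 8 and 37.8% on day 1. IAA19, which acts with ARF7 in hypocotyl bending, had 34.9% on day 8 and 39.0% on day 1. IAA12 (BODENLOS), the partner of ARF5, had 34.1% on day 8 and 36.0% on day 1, and both members of that pair lay above the median gene on day 8. IAA14 (SOLITARY-ROOT), which blocks lateral root initiation through ARF7 and ARF19, had 31.8% on day 8 and 38.0% on day 1, and IAA16 had 29.99% on day 8 and 36.1% on day 1. On day 8, IAA2, IAA9 and IAA16 lay within 0.1 (log10) of features without signal around them, so their likeness may not be a trait of the genes.

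A further group of canonical members was lower on day 8 without passing 2-fold. IAA4 had 27.9% on day 8 and 40.2% on day 1, IAA5 had 26.7% on day 8 and 35.8% on day 1, and IAA18 had 22.4% on day 8 and 37.8% on day 1. IAA11 had 20.8% on day 8 and 36.2% on day 1, and IAA29, a gene induced by shade, had 18.9% on day 8 and 32.8% on day 1. IAA3 (SHY2), which sets root meristem size, was low on both days with 16.9% on day 8 and 22.6% on day 1. The day 8 ratios of IAA4, IAA5, IAA11 and IAA18 lay within 0.1 (log10) of features without signal around them. No check without such genes was made for day 8.

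Of the listed proteins, 6 lack the degron of domain II through which TIR1 takes hold, or carry an altered form of it: IAA20, IAA30, IAA31, IAA32, IAA33 and IAA34. Such proteins are long-lived compared with their relatives. The median over these 6 was 16.6% for day 8, against 39.2% for day 1, and over the 18 other Aux/IAA genes it was 30.9% for day 8, against 35.0% for day 1. The median change was -0.90 for the 6 and -0.13 for the 18. All 3 Aux/IAA genes past 2-fold lower belong to the 6, and none of the 18 passed it, where 25.6% of all genes did. IAA20 had 12.8% on day 8 and 39.7% on day 1 (-1.63), IAA32 had 17.6% on day 8 and 39.5% on day 1 (-1.17), and IAA33 had 22.2% on day 8 and 47.8% on day 1 (-1.10). The 2 probes of IAA32 gave -1.57 and -0.76, so its 2-fold call rests on their mean. Both ratios of IAA33 were close to features without signal around it, which lay at 25.3% for day 8 and 53.6% for day 1. The 47.9% on day 1 of the IAA32 probe that gave -1.57 was close to that day 1 level as well. Without genes within 0.1 (log10) of that level on day 1, which takes out IAA32 and IAA33, 1 Aux/IAA gene, IAA20, was at least 2-fold lower. The share over all genes left by that filter was 25.2%.

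The other members of these 6 differed less between the days. IAA34 had 10.3% on day 8 and 16.7% on day 1, and IAA31 had 15.6% on day 8 and 15.8% on day 1, so both stood in the lowest 3% of all genes on day 1, at percentiles 2.90 and 2.47. IAA30 had 31.8% on day 8 and 39.0% on day 1 and lay above the median gene on day 8. The group was put together after its values had been seen, so its separation is a description of these genes and no test. IAA15 gave no signal on either day.

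SAUR mRNAs were the lowest of the 3 classes on day 8. The lowest was SAUR14, with 5.05% on day 8 and 18.7% on day 1 (-1.89), in the lowest 2% of all genes at percentile 1.09. SAUR53 had 5.71% on day 8 and 29.7% on day 1, the lowest change of any member (-2.38). SAUR49 had 6.38% on day 8 and 19.5% on day 1, and SAUR5 had 9.25% on day 8 and 37.1% on day 1 (-2.00). SAUR50, nearest the median change of the class, had 15.7% on day 8 and 27.0% on day 1.

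Several low changes go with high day 1 values. SAUR58 had 21.5% on day 8, against 70.8% on day 1, and SAUR52 had 31.5% on day 8, against 74.1% on day 1. SAUR71 had 12.3% on day 8 and 47.9% on day 1, and SAUR74 had 14.5% on day 8 and 45.3% on day 1. Features without signal around these 4 lay between 52.2% and 54.1% on day 1, so SAUR58 and SAUR52 were above that level and SAUR71 and SAUR74 not far below it. The day 8 ratios of SAUR58 and SAUR52 also lay within 0.1 (log10) of features without signal, at 25.5% and 26.7%. Whether weak signal set these day 1 values was not tested, since signals of single channels were not used here. Without genes within 0.1 of that level on the log10 scale, which takes out SAUR23, SAUR60, SAUR71 and SAUR74, 31 SAUR genes remained. Their medians were 16.5% for day 8, against 31.3% for day 1. Of the 31, 10 were at least 2-fold lower, with 25.2% over all genes left by the same filter.

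The upper end held 2 SAUR genes past 2-fold higher. SAUR56 had 26.4% on day 8 and 11.7% on day 1 (1.17), and SAUR40 had 37.8% on day 8 and 18.5% on day 1 (1.04). The day 8 value of SAUR56 was close to the 24.7% of features without signal around it, and that of SAUR40 was not. SAUR41, known for promoting cell expansion, had 19.8% on day 8 and 16.4% on day 1. SAUR55 had the highest day 8 ratio of the class, 39.7%, and 31.8% on day 1. SAUR54 had 30.3% on day 8 and 30.2% on day 1. SAUR24 likewise differed little, with 10.1% on day 8 and 10.5% on day 1. Only 7 of 35 SAUR genes lay above the median gene on day 8, where 10 of 35 did on day 1.

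**Figure D3:**
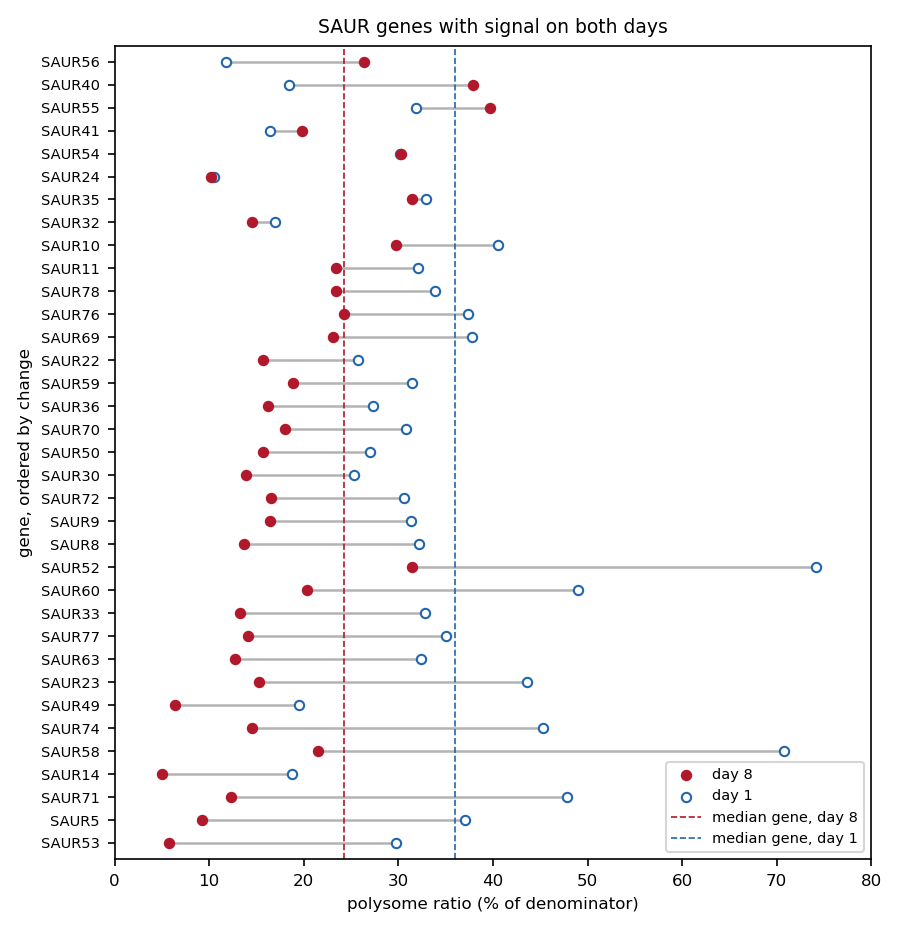
Polysome ratio, in percent of the denominator, of the 35 SAUR genes with signal on both days, ordered by change, on day 8 (filled points) and day 1 (open points), with 1 array a day. Dashed lines mark the median over all genes; 28 of the filled points lie at or left of the day 8 line at 24.2%, and the lowest is SAUR14 at 5.05%.

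Many SAUR genes stand in rows of near copies, and a probe for one may also bind its neighbours, so single values there are uncertain. Of 24 SAUR genes in 4 such rows that were listed, 7 had signal on both days. The median over these 7 was 12.7% for day 8, against 27.0% for day 1, and over the 28 other SAUR genes 19.3% for day 8, against 32.0% for day 1. The list of rows is not complete. By locus code SAUR14 stands next to SAUR15, and SAUR53 next to SAUR54, so the 28 others are not all single genes. In the row of SAUR19, whose products activate the proton pump, SAUR22 had 15.7% on day 8 and 25.8% on day 1, and SAUR23 had 15.3% on day 8 and 43.6% on day 1. A probe shared by 3 genes of the same row, SAUR20, SAUR21 and SAUR24, gave 14.5% on day 8 and 40.1% on day 1, unlike the 10.1% on day 8 and 10.5% on day 1 of the probe named for SAUR24 alone. In the row of SAUR63, a gene of organ elongation, SAUR63 itself had 12.7% on day 8 and 32.4% on day 1. In the row of SAUR1, 3 of 7 genes had signal on both days, namely SAUR49, SAUR5 and SAUR50. Their median was 9.25% for day 8, against 27.0% for day 1, and their single values given above are uncertain in the same way. The row of SAUR26 gave no signal on either day in any of its 5 genes. These rows were chosen after the values had been seen.

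A few SAUR genes stand out by what is known of them. SAUR36, a gene induced in leaf senescence, had 16.3% on day 8 and 27.4% on day 1. SAUR30 is annotated in the file together with a conserved upstream open reading frame, a short frame ahead of the main one, and had 13.9% on day 8 and 25.3% on day 1. SAUR32 had 14.5% on day 8 and 17.0% on day 1. None of these 3, which were chosen after their values had been seen, passed 2-fold, where 25.6% of all genes were lower by that much. Of the 8 SAUR genes with signal on day 1 only, SAUR31 had 9.73% and SAUR34 had 16.8% on day 1, while SAUR39 had 67.1%. The others with day 1 values only were SAUR66 (60.5%), SAUR48 (55.8%), SAUR1 (40.2%), SAUR51 (35.2%) and SAUR61 (33.7%). The 4 with signal on day 8 only had 5.93% (SAUR44), 10.9% (SAUR18), 15.8% (SAUR19) and 23.0% (SAUR25) on day 8.

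GH3.9, an enzyme of the family that joins indole-3-acetic acid to amino acids, had 21.9% on day 8 and 88.5% on day 1 (-2.01). Its day 1 ratio was at percentile 99.4 of all genes, and its day 8 ratio lay close to the 24.6% of features without signal around it.

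The ARF genes are long and the SAUR genes short. In the RefSeq gene table of TAIR10.1 each of the 119 loci has a span, introns included. The median span of those with signal on both days was 4530 bases for ARF, 1634 for Aux/IAA and 872 for SAUR genes. With Aux/IAA and SAUR genes pooled, the median ARF ratio was higher by 0.77 on day 8 and by 0.19 on day 1, on the log2 scale, and the medians of the change differed by 0.69. On day 8, 5 of the 59 short genes lay above the ARF median and 3 of 15 ARF genes lay below the median of the short ones.

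Length went with the ratio over all genes as well. Across 19298 protein-coding genes Spearman's rho between span and ratio was 0.39 on day 8 and 0.13 on day 1. Between span and change it was 0.36. These values are across genes of the same 2 arrays and are no test. The median day 8 ratio was 17.5% for genes under 1000 bases, 20.6% from 1000, 24.5% from 2000, 28.8% from 3000 and 33.6% from 4000 bases up. The medians on day 1 were 33.1%, 35.2%, 36.3%, 37.0% and 36.6% in the same order of span.

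The classes were also set against genes of their own span. The 26 SAUR genes under 1000 bases had a median of 16.5% on day 8, where all such genes had 17.5%, and 12 of the 26 lay above that. Their median change was -0.82, where that of all such genes was -0.89, and 14 of the 26 lay above it. The 9 ARF genes of 4000 bases and more had 37.2%, where all such genes had 33.6%, and 7 of the 9 lay above. The 6 ARF genes from 3000 to under 4000 bases had 29.3%, where all had 28.8%, and 3 lay above. The Aux/IAA genes stood further from their stratum: the 16 from 1000 to under 2000 bases had 28.6%, where all had 20.6%, and 11 of the 16 lay above. The 7 SAUR genes of that same span had 16.3%, and 2 lay above. From 2000 to under 3000 bases, 6 Aux/IAA genes had 30.9% and 2 SAUR genes had 15.8%, where all had 24.5%, and 4 and 0 of them lay above. In both of these strata the Aux/IAA median lay above and the SAUR median below that of all genes on day 8.

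Within each class, rho between span and the day 8 ratio was 0.52 over 15 ARF genes, 0.26 over 24 Aux/IAA genes and 0.07 over 35 SAUR genes. Between the day 8 and day 1 ratios rho was 0.74 among ARF genes, 0.02 among Aux/IAA genes and 0.19 among SAUR genes, where it was 0.39 over all genes.

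**Figure D4:**
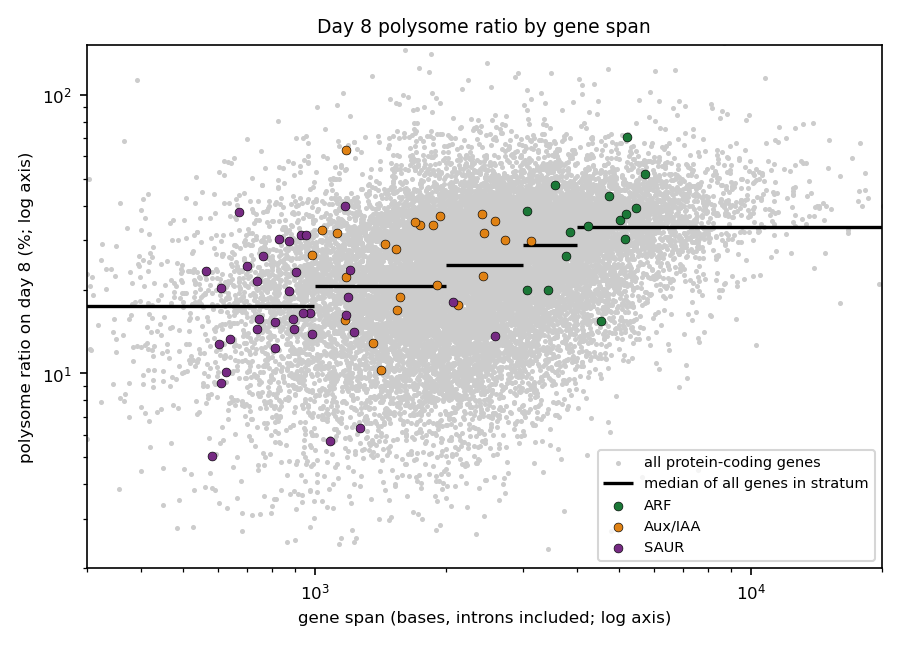
Polysome ratio on day 8 (percent, log axis) against gene span in bases with introns (log axis) for 19298 protein-coding genes (grey; a few lie outside the axes), with ARF, Aux/IAA and SAUR genes in colour and the median of all genes in each stratum of span as black bars. The bars step up from 17.5% under 1000 bases to 33.6% from 4000 bases. SAUR genes under 1000 bases lie around the bar of their span, and Aux/IAA genes from 1000 to under 2000 bases mostly lie above theirs.

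The rest of the auxin pathway was described from a list of 66 genes besides GH3.9, of which 53 had signal on both days. The median over these 53 was 29.4% for day 8, against 37.3% for day 1, with a median change of -0.39. At least 2-fold lower were 7 of 53, with 25.6% over all genes, and 0 were at least 2-fold higher, with 1.17% over all genes.

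All 5 co-repressors that Aux/IAA proteins recruit lay above the median gene on day 8. TOPLESS (TPL) had 32.0% on day 8 and 30.8% on day 1, and its relative TPR2 had 55.5% on day 8 and 37.1% on day 1. TPR1 had 43.4% on day 8 and 44.3% on day 1, TPR4 had 39.0% on day 8 and 38.5% on day 1, and TPR3 had 35.4% on day 8 and 33.3% on day 1. Over the 5 the median was 39.0% for day 8, against 37.1% for day 1. None was at least 2-fold lower, with 25.6% over all genes.

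For receptors and their ubiquitin ligase, the median over 13 genes was 22.4% for day 8, against 37.3% for day 1 (median change -0.71), and 3 were at least 2-fold lower, with 25.6% over all genes. The auxin receptors lay on both sides of that median, with 23.4% on day 8 and 37.7% on day 1 for TIR1, 19.2% on day 8 and 38.3% on day 1 for AFB2, and 19.1% on day 8 and 31.3% on day 1 for AFB3. SGT1B, a chaperone partner of the ligase, had 36.1% on day 8 and 35.3% on day 1. AFB1 had 32.9% on day 8 and 38.1% on day 1, and AFB5 had 35.1% on day 8 and 41.5% on day 1. The 3 past 2-fold were parts or helpers of the ligase: ASK2, an SKP1-like adaptor, had 11.9% on day 8 and 36.7% on day 1 (-1.62), the RING protein RBX1 had 13.9% on day 8 and 34.3% on day 1, and ECR1, which activates the cullin modifier RUB, had 15.7% on day 8 and 34.5% on day 1. The receptors TIR1, AFB2 and AFB3 were named after their values had been seen.

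Transport genes had medians over 16 genes of 28.6% for day 8, against 36.8% for day 1. Of these, the efflux carrier PIN3, with 50.7% on day 8 and 36.9% on day 1, the transporter ABCB1, with 39.4% on day 8 and 35.0% on day 1, and the kinase WAG1, with 36.0% on day 8 and 32.1% on day 1, had the highest changes. WAG2, like WAG1 a kinase of PIN polarity, had 10.2% on day 8 and 32.4% on day 1 (-1.66), the influx carrier LAX1 had 16.2% on day 8 and 42.6% on day 1 (-1.40), and PIN4 had 27.9% on day 8 and 46.0% on day 1.

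Synthesis genes gave little signal, with 5 of 14 present on both days and TAA1 not among them. All 5 were lower on day 8, as were 81.5% of all genes, and their median change was -0.94, where that of all genes was -0.52. YUC11 had 13.5% on day 8 and 48.1% on day 1, YUC3 had 13.6% on day 8 and 47.2% on day 1, TAR1 had 15.6% on day 8 and 29.99% on day 1, TAR2 had 26.5% on day 8 and 42.4% on day 1, and YUC1 had 21.9% on day 8 and 34.5% on day 1. The day 1 ratios of YUC11 and YUC3 were not far below the 53.8% of features without signal on that day.

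Genes of conjugation and turnover other than GH3.9, which is a member described above, had medians over 14 genes of 39.0% for day 8, against 37.7% for day 1. Of these, 0 were past 2-fold in either direction, where 25.6% of all genes were lower and 1.17% higher by that much. The auxin-induced synthetases GH3.2, with 76.9% on day 8 and 42.9% on day 1, and GH3.1, with 43.8% on day 8 and 33.7% on day 1, were highest in change with the hydrolase ILL1, which had 39.7% on day 8 and 30.8% on day 1. The oxidase DAO1 had 20.2% on day 8 and 38.1% on day 1, DFL2 had 20.04% on day 8 and 33.7% on day 1, and GH3.17, of the same family as GH3.2, had 22.0% on day 8 and 36.1% on day 1. GH3.2, an early auxin target like the SAUR genes, thus lay at the opposite end of the day 8 ratios from SAUR14.

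**Figure D5:**
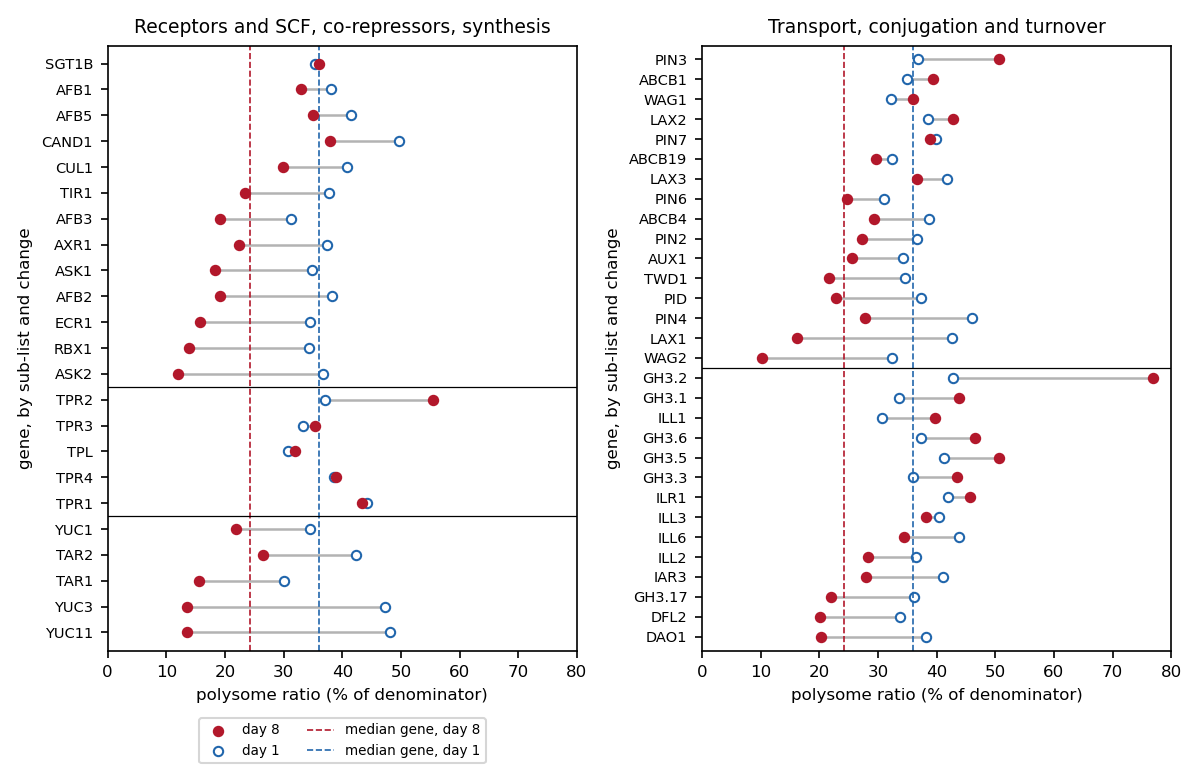
Polysome ratio, in percent of the denominator, of 53 other auxin pathway genes on day 8 (filled points) and day 1 (open points), with 1 array a day; dashed lines mark the median over all genes on each day. Left, from top to bottom and divided by lines: receptors and ubiquitin ligase, co-repressors, synthesis. Right: transport, then conjugation and turnover. The co-repressors and most GH3 genes lie right of the day 8 line at 24.2%, and the synthesis genes apart from TAR2 lie left of it.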

How the data were processed

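The values are log10 ratios of 39102 features as the authors deposited them, from 1 two-colour array a day, named polysome ratio per the file headers. The series' value table held identical numbers on both days, and the deposited difference equals day 8 less day 1 within 0.001. No source used here gives how scanner signals became ratios. The log base was read from the spike-in probes, which spread to 0.925 and -0.838 on day 1, near the steps of a log10 scale. Depth does not apply to arrays, and their number limits the precision.

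Values were converted to log2 and percent. For each array the value without signal was the median of the 30 nearest features (85 columns) within 0.04 (log10) of the negative-control median, and features within 0.006 of it were left out: 26.6% (day 8) and 25.5% (day 1) of gene features, and 95.8% and 94.3% of negative controls. The rule was tested on simulated data, with features without signal drawn close around that value, so that finding them was nearly fixed in advance. Weak signal drawn towards that value was not simulated. Probes named by 1 locus were averaged per gene on the log scale, and 5 matched probes naming several loci were not used. The RefSeq gene table of TAIR10.1 held all 119 loci and gave symbols and spans; its coordinates are not printed because the array's build is not given here. Protein lengths had been planned, and gene spans were used instead. Named were all ARF and Aux/IAA genes, the 6 highest and 6 lowest SAUR changes, the 3 highest and 3 lowest SAUR day 8 ratios, the SAUR gene nearest the median, members with signal on 1 day, and the 3 highest and 3 lowest changes of each pathway sub-list; others are said to be chosen later. Of the pathway list, 1 transport gene is not reported here and entered no pathway count or median. Members and lists were chosen with earlier results of these data known. Python 3.11.15, pandas 2.3.3 and scipy 1.17.1 were used, and 0 columns of per-sample values were left unused.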

Additional observations from a re-analysis of the deposited data

Results flagged for a closer look

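Signal was also found on both days in 4 probes that belong to this gene family but entered no comparison, because the file names them by symbol or by several loci. By the same rule, 26.6% of gene features on day 8 and 25.5% on day 1 were at the value without signal. So were 95.8% and 94.3% of negative controls, around whose median that value was set. The probe named ARF2 had 252% on day 8, against 47.5% on day 1, a change of 2.41 on the log2 scale, where the probe used for that gene differed by 0.60. The probe named for SAUR20, SAUR21 and SAUR24 together (AT5G18020, AT5G18030 and AT5G18080) had 14.5% on day 8 against 40.1% on day 1, a change of -1.46. IAA7 (AXR2), a repressor whose stabilised form makes plants resistant to auxin, had 39.1% on day 8, against 46.3% on day 1, a change of -0.25. IAA13 had 30.8% on day 8 against 37.0% on day 1, a change of -0.27. Both lay above the median gene on day 8.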

How the results depend on the processing

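No paired analysis was possible because each day has 1 sample. Of the class values recomputed, 228 moved by less than the probe SD (medians) or by at most 1.5 times (counts), and 24 moved by more. With features without signal kept, 73 SAUR genes had medians of 24.5% for day 8, against 49.0% for day 1, a change of -1.07 and 44 genes at least 2-fold lower, where all genes had a median change of -0.67 and 34.8% at least 2-fold lower; 5 ARF genes were at least 2-fold lower, and ARF genes differed from the short classes by 0.34 on day 8 and -0.028 on day 1. These added values are those of features without signal, which differ between the days. Leaving out features without signal on both days only (chosen after seeing the data) gave 22 of 47 SAUR genes at least 2-fold lower, with 27.4% over all genes. With 0 at the median spike-in the medians were 0.28 (ARF), 0.027 (Aux/IAA) and -0.49 (SAUR), with 0 ARF and 1 Aux/IAA gene at least 2-fold lower. With 0 at the median gene they were 0.51, 0.26 and -0.26, with 0, 1 and 7 genes at least 2-fold lower and 1 ARF gene at least 2-fold higher. Also chosen after seeing the data was leaving out genes near the day 1 value without signal. It gave 1 Aux/IAA gene at least 2-fold lower, with 25.2% over all genes. The ARF change then exceeded that of the short classes by 0.40. Leaving out the 6 Aux/IAA genes that lack domain II, also chosen late, gave 0 at least 2-fold lower, with 25.6% over all genes. The wider and narrower tolerance, genes with 1 probe, and SAUR genes outside the listed tandem rows moved no class value beyond these limits. The median probe, members with a class symbol, and genes above 100% left out could not move a class value. No member has more than 2 probes, GH3.9 is in no class, and no member passes 100% by the probes used. Their unchanged values are among the 228, as are 3 counts from the identical value table.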
